A study of Mus musculus with 24 samples.

Results

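CpG-dense promoter tiles were defined as the 100 bp genome tiles that held 7 or more CpGs in the mm10 mouse sequence and overlapped the window from 1000 bp upstream to 500 bp downstream of the start of a curated RefSeq protein-coding transcript. The rule used sequence and annotation only, and no methylation value. Of the 758685 autosomal tiles present in the liver, brain and heart tables, 48343 (6.37%) met it. They lay nearest to the starts of 11772 of the 20021 autosomal genes with a curated protein-coding transcript, with a median of 4 and at most 20 tiles per gene and a median of 11 CpGs per tile (7 to 27). A tile was assigned to the gene with the nearest start, and 4202 of the tiles also fell in the window of another gene.

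The data came from enhanced reduced representation bisulphite sequencing (RRBS), in which MspI-cut DNA is converted with bisulphite so that unmethylated cytosines read as thymine, and the methylation level is the percent of reads that kept a cytosine. DNA was from untreated C57Bl/6J mice aged 24 weeks of both genders, with 12 liver, 6 brain and 6 heart libraries, taken from the caudal left liver lobe, a rostral coronal slice of brain and the heart apex. The authors state that brain and heart came from mice that also gave liver. However, the columns of the tables carried running numbers only, so that the libraries were compared by tissue and neither by gender nor by mouse. Each tissue level below is the mean over all libraries of that tissue, and an SD is over those libraries.

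In vertebrate genomes most CpGs are methylated, and the exception is the CpG island, a stretch of dense CpGs that is found at the starts of most widely used genes and is normally free of methylation whether or not the gene is active. Known exceptions are germline genes, whose CpG-dense promoters are methylated in the body early in development, and imprinted genes, where methylation marks the allele of 1 parent only. Bisulphite does not tell 5-methylcytosine from 5-hydroxymethylcytosine, which is abundant in brain.

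The sequences of tiles that carry the main patterns are given here from the mm10 (GRCm38) genome, plus strand, 5′ to 3′, with every CpG in capitals. The annotation in brackets is taken from any curated protein-coding transcript at that position. The Mcts2 and Tmem267 tiles, both marked intron, were centred -297.5 and -122.5 bp from the nearest start of the named gene. A tile in an intron of the housekeeping gene Actb (beta-actin) shows the unmethylated ground state, Msh4, Hsf5 and Dazl stand for tiles methylated in all 3 tissues, Meioc, Plagl1 and Mcts2 for tiles at intermediate levels, Fut11, Bcat2, Mia2, Lrrc4, 1300017J02Rik, B3glct and Adcy6 for tiles that set 1 tissue apart, Igf2r for an imprinted promoter that was low in brain, and Tmem267 for a promoter that differed between libraries of 1 tissue.
Actb (chr5:142906401-142906500, intron): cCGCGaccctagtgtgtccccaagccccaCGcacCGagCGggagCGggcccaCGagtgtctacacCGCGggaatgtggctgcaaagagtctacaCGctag
Msh4 (chr3:153905601-153905700, coding sequence): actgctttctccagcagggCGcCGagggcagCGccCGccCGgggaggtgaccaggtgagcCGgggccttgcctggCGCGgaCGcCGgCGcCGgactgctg
Hsf5 (chr11:87617001-87617100, upstream of the start): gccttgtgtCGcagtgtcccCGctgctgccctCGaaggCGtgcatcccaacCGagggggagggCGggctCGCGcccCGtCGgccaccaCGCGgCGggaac
Dazl (chr17:50293301-50293400, intron): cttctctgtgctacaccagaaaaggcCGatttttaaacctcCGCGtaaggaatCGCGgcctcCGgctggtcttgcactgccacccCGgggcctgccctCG
Meioc (chr11:102666001-102666100, intron): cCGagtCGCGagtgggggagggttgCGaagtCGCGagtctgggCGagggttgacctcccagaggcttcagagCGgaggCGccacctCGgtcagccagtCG
Plagl1 (chr10:13090701-13090800, upstream of the start): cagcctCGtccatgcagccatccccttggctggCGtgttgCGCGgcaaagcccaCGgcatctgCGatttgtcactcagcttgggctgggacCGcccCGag
Mcts2 (chr2:152686801-152686900, intron): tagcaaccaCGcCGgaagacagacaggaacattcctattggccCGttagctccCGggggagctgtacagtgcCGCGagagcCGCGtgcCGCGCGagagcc
Fut11 (chr14:20695301-20695400, coding sequence): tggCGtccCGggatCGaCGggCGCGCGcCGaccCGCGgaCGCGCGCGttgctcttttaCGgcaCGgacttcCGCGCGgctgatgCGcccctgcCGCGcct
Bcat2 (chr7:45570401-45570500, intron): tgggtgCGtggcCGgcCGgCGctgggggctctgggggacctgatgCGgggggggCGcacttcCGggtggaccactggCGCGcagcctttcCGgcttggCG
Mia2 (chr12:59094501-59094600, upstream of the start): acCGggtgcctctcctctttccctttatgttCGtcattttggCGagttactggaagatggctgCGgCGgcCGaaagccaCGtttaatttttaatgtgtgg
Lrrc4 (chr6:28831501-28831600, coding sequence): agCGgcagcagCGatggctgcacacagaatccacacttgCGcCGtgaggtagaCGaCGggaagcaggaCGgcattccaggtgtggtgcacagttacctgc
1300017J02Rik (chr9:103288401-103288500, upstream of the start): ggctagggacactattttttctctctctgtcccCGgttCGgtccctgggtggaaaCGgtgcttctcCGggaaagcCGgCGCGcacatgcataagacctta
B3glct (chr5:149678401-149678500, intron): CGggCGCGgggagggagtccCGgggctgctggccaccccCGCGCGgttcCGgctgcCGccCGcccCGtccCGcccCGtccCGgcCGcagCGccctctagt
Adcy6 (chr15:98604601-98604700, coding sequence): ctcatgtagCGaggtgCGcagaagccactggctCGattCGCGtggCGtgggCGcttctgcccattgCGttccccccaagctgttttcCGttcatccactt
Igf2r (chr17:12769301-12769400, coding sequence): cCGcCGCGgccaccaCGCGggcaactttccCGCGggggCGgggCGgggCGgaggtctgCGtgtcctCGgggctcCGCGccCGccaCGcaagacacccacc
Tmem267 (chr13:119488301-119488400, intron): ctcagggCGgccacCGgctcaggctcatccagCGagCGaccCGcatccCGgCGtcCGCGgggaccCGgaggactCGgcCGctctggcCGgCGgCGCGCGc

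CpG-dense promoter tiles were almost uniformly unmethylated in all 3 tissues. The level was under 10% in liver, brain and heart alike for 46820 tiles (96.8%, exact Clopper-Pearson 95% interval 96.7 to 97%, which treats tiles as independent), against 14.1% of all tiles in the 3 tables. It was under 5% in all 3 tissues for 93.7% of the tiles. Of the 11772 genes, 10729 (91.1%) had no tile above that ground state, that is, every CpG-dense tile was under 10% in all 3 tissues.

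The mean level over the 48343 tiles came to 2.44% (liver), 1.84% (brain) and 1.92% (heart), and the median 1.06%, 0.717% and 0.867%. CpG-poor tiles of the same promoter windows (fewer than 7 CpGs, 39950 tiles) had means of 20.9%, 21% and 18.9%, and CpG-dense tiles away from gene starts (32649 tiles) had means of 39.7%, 38.9% and 37.2%. Levels of 50% or more were found in 0.889%, 0.767% and 0.710% of the CpG-dense promoter tiles in liver, brain and heart. The corresponding shares were 19.5%, 20% and 17.4% of the CpG-poor promoter tiles and 41.6%, 40.7% and 40.1% of the CpG-dense tiles elsewhere.

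**Figure D1:**
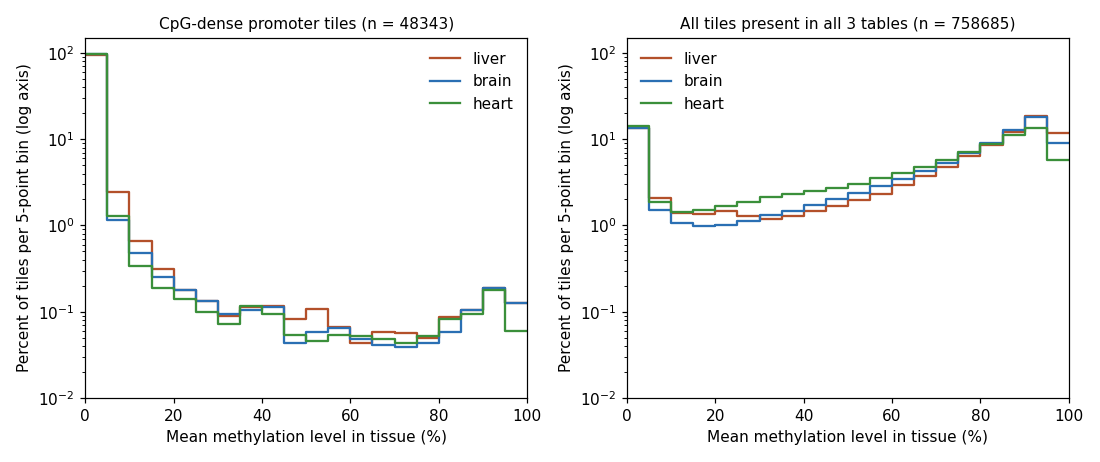
Percent of tiles (log axis) in each 5-point bin of mean methylation level for liver, brain and heart, for the 48343 CpG-dense promoter tiles (left) and all 758685 tiles present in the 3 tables (right). Nearly all CpG-dense promoter tiles lie in the lowest bin and a small group lies above 80%, whereas most of all tiles lie at high levels.

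The ground level itself differed slightly between libraries. Over the 46820 unmethylated tiles, the mean level per library ran from 1.13 to 1.97% (median 1.33%) in liver, from 0.841 to 0.949% (median 0.904%) in brain and from 0.997 to 1.31% (median 1.03%) in heart. Every liver library was above every brain library, while liver and heart overlapped. Over the 59810 other tiles that were under 10% in all 3 tissues the means per library were 2.21 to 3.61%, 1.99 to 2.28% and 1.80 to 2.19%, with every liver library above every heart library and an overlap of brain with both. Conversion rates are not in the files used here. The mean over all tiles was 64.8 to 66.1% in the liver libraries, 63.7 to 66.4% in brain and 59.6 to 60.3% in heart.

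Within the CpG-dense promoter tiles, the level fell further as the number of CpGs rose. Tiles just inside the rule, with 7 CpGs, averaged 4.82% in liver, 4.19% in brain and 4.02% in heart, and promoter tiles just outside it, with 6 CpGs, averaged 6.73%, 6.08% and 5.69%. Tiles with 12 CpGs averaged 1.76%, 1.13% and 1.30%, and the 968 tiles with 20 or more averaged 1.16%, 0.592% and 0.824%. The share of tiles at 50% or more in all 3 tissues fell from 2.09% at 7 CpGs to 0.739% at 9 and 0.141% at 12, and it was 0 of the 968 tiles with 20 or more. The median moved much less, from 1.38% to 0.742% in liver between 7 and at least 20 CpGs, so that the mean fell more than the median did.

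Levels varied little between -500 and 500 bp and were higher further upstream. Tiles centred from 0 to 250 bp downstream averaged 2.20%, 1.65% and 1.72% in liver, brain and heart, and 0.526% of them were methylated in all 3 tissues. Those centred upstream of -750 bp averaged 6.80%, 6.39% and 6.00%, and 4.25% of these 753 tiles were methylated in all 3 tissues. Downstream the levels were slightly higher at the far end, with 3.07%, 2.41% and 2.35% in the tiles centred beyond 500 bp.

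**Figure D2:**
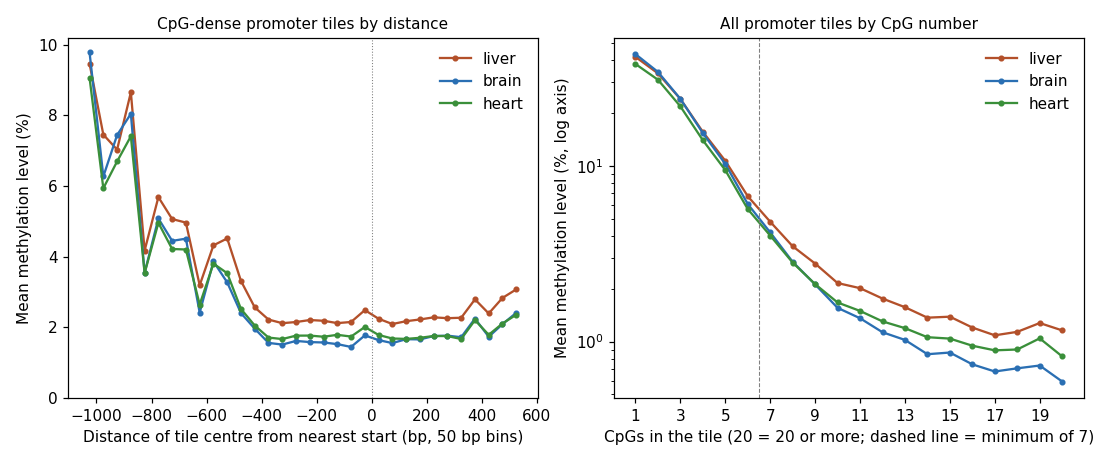
Mean methylation level (percent) of the CpG-dense promoter tiles by distance of the tile centre from the nearest start in 50 bp bins (left) and of all promoter tiles by their number of CpGs, on a log axis (right), for liver, brain and heart. Levels lie near 2% from the bin at -375 bp to the downstream side, are higher further upstream, and fall as CpGs increase, from 4.82% at 7 CpGs in liver to 1.16% at 20 or more.

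Differences between tissues were tested tile by tile with a limma model of the fractions in the 24 libraries, fitted to all 758685 tiles, and a tile was called at an adjusted p of 0.01 or less with a difference of at least 25 points. Only 244 CpG-dense promoter tiles of 159 genes (0.505%) were called in any of the 3 comparisons, against 18.9% of all tiles. Between liver and brain, 155 were higher in liver (0.321%, with a background of 5.04% of all tiles) and 43 higher in brain (0.0889%, background 4.76%). Between liver and heart, 144 were higher in liver (0.298%, background 7.94%) and 22 higher in heart (0.0455%, background 2.87%). Between brain and heart, 35 were higher in brain (0.0724%, background 7.71%) and 27 higher in heart (0.0559%, background 1.76%). All these shares were below the background. However, a tile that was unmethylated in all 3 tissues could not reach a difference of 25 points. This kept 96.8% of the CpG-dense promoter tiles from any call, against 14.1% of all tiles. The 244 called tiles came from the remaining 1523. The lower shares therefore follow at least in part from the low levels. They do not by themselves show smaller differences among the tiles that could be called. Among all tiles 38244 were called higher in liver than brain and 36109 higher in brain, a smaller imbalance than the 155 and 43 of the CpG-dense promoter tiles, although that difference was not tested. In bulk tissue, a larger share of cells of a methylated type and a higher level per cell cannot be told apart.

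At the upper end, 295 tiles of 223 genes (0.610%, 95% interval 0.543 to 0.684%) had levels of 50% or more in all 3 tissues, a class that held 62.9% of all tiles. The interval again treats tiles as independent, although 51 genes had 2 or more methylated tiles. Of the 295 tiles, 197 were at 75% or more in all 3 tissues. Median levels of the 295 tiles were 90.8%, 90.1% and 86.1% in liver, brain and heart. For 148 genes every CpG-dense tile was methylated, and 40 of those had more than 1 such tile. A further 57 genes had both a methylated and an unmethylated tile.

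The methylated tiles were short of CpGs within the class and touched coding sequence more often. They held 8.24 CpGs on average against 11.3 in the unmethylated tiles, and had a GC content of 62.9% against 70.8%. TpG or CpA dinucleotides, which can arise when a CpG is lost by deamination, numbered 13 against 10.1. Their origin was not tested. Among tiles with 7 to 9 CpGs these gaps were smaller, with a GC content of 61.8% in the methylated tiles against 65% in all, and 13.2 TpG or CpA against 11.7. Coding sequence was touched by 162 of the 295 (54.9%) against 25.5% of the unmethylated tiles, and an untranslated exon without coding sequence by 18.6% against 34.8%. Tiles in introns made up 8.47% against 18.9%, and 39.7% of the methylated tiles were centred upstream of the start against 33.2% of the unmethylated ones. The upstream excess was absent among tiles with 7 to 9 CpGs, at 36.9% of the methylated ones against 37.7% of all. In the same range of CpGs, coding sequence was touched by 56.6% against 24.4%. Repeat-masked bases covered at least 50 bp in 24 of the 295 tiles (8.14%) against 0.587% of unmethylated tiles. Neighbouring tiles were mostly alike. Of the 93 methylated tiles with an adjoining member tile, 79 had a methylated neighbour and 1 had an unmethylated one.

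The E-box letters CACGTG, which read the same on both strands, were present in 22 of the 295 methylated tiles (7.46%) and in 2.77% of all 48343 tiles. Among tiles with 7 to 9 CpGs the shares were 5.62% and 2.73%. The letters GCGGGAA, searched on both strands and bound by E2F factors that act on germline genes, were in 3.39% of the methylated tiles and 3.79% of all tiles. The letters CCGGAA of the ETS family, on both strands, were in 10.8% and 9.44%. These shares describe letters only, and some tiles belong to the same gene.

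Genes with roles in germ cells were frequent among those with the most methylated tiles. Of all 295 methylated tiles, 45 belonged to the germline list described below, as did 24 of the 223 genes. The 12 genes with the most tiles at 50% or more in all 3 tissues included Hsf5 with 6, Taf7l2, Fam178b, Dazl, Msh4 and 4933428G20Rik with 4 each, and 1700029P11Rik, Fkbp6, Sycp2, Mael and Ddx4 with 3 each. Hsf5, a heat shock factor family gene used in the testis, had all 6 of its tiles methylated, with centres from -213.5 to 486.5 bp relative to its start. The mean of these 6 tiles was 92.6 to 95.9% (median 94.2%) in the liver libraries, 87.3 to 91.9% (median 88.9%) in brain and 85.5 to 90.1% (median 87.5%) in heart. All 24 libraries were high, with liver above both other tissues and brain and heart overlapping.

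Dazl encodes a germ cell RNA-binding protein. Its 4 methylated tiles averaged 89.9 to 96.4% in liver, 92.0 to 94.2% in brain and 90.0 to 94.0% in heart, so that the tissues overlapped throughout. The remaining Dazl tile lay at 31.2 to 39.6% across the tissue means. Msh4, which stabilises crossover intermediates in meiosis, averaged 82.2 to 95.6% in liver, 84.8 to 92.0% in brain and 83.8 to 90.9% in heart over its 4 tiles. Ddx4, the germ cell RNA helicase known as Vasa, was less methylated, at 61.6 to 79.3% in liver, 58.1 to 70.8% in brain and 46.5 to 67.8% in heart.

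The whole germline list was examined for comparison. It held 51 genes, of which 35 had 78 CpG-dense tiles. Of these, 45 tiles of 24 genes were methylated in all 3 tissues and 20 were unmethylated in all 3 (57.7% and 25.6%, against 0.610% and 96.8% of all CpG-dense promoter tiles). Median levels were 77.6% in liver, 83.2% in brain and 71.3% in heart. Genes whose tiles averaged over 90% in all 3 tissues included Dpep3, Rpl10l, Tuba3a and Tuba3b. For Tuba3a, a testis alpha-tubulin gene, the mean of 2 tiles was 94.1 to 97.7% in liver, 94.8 to 96.7% in brain and 91.3 to 95.4% in heart.

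Other germline genes lay in the ground state. Tdrd5, a Tudor-domain gene of spermatogenesis, had 7 tiles under 10% in all 3 tissues with means of 2.94%, 1.14% and 1.47% in liver, brain and heart. Mei4, Meiob, Ddx25, Stag3 and Zpbp2 also had every CpG-dense tile under 10% in all 3 tissues. Between the extremes lay, among others, Adad1 with means of 46.6%, 43.0% and 31.0% over 3 tiles, 1 of which was called higher in liver than heart by 28.9 ± 3.45 points (limma, adjusted p = 1.01e-07), and Ddx4 also had 1 tile so called, by 28.8 ± 6.15 points (adjusted p = 3.56e-04).

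**Figure D3:**
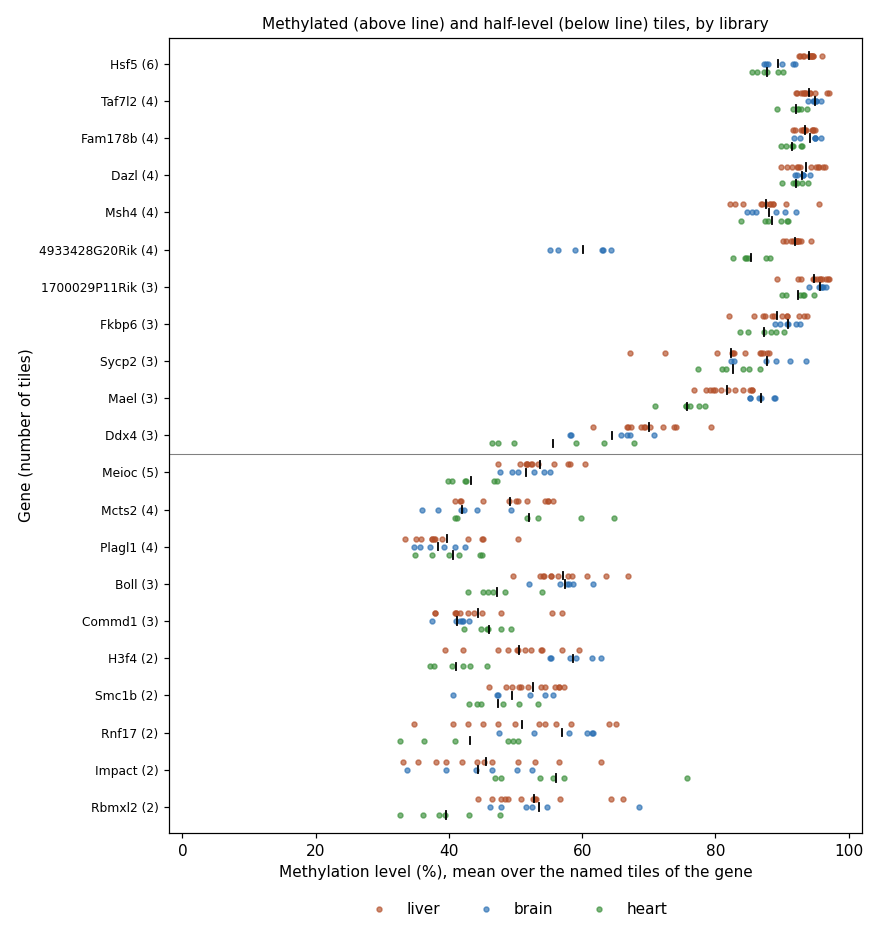
Methylation level (percent) in each of the 12 liver, 6 brain and 6 heart libraries (points) with the tissue mean (black mark), averaged over the named tiles of each gene, whose number stands in brackets. The upper genes had the most tiles at 50% or more in all 3 tissues and the lower ones the most tiles from 35 to 65%, and 4933428G20Rik is the upper gene in which brain lies apart, at 55.1 to 64.3%.

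Levels of 10 to under 50% were found in 1.68%, 1.40% and 1.10% of the CpG-dense promoter tiles in liver, brain and heart. The shares of all tiles were 11.1%, 10.7% and 16.2%. Levels between 35 and 65% in all 3 tissues were found in 82 CpG-dense promoter tiles of 60 genes (0.170%). The 10 genes with the most such tiles were Meioc with 5, Mcts2 and Plagl1 with 4, Boll and Commd1 with 3, and H3f4, Smc1b, Rnf17, Impact and Rbmxl2 with 2. Mcts2, Plagl1, Commd1 and Impact are on the list of imprinted genes, and Meioc, Boll, Smc1b and Rnf17 have known roles in germ cells. Of the 3 Commd1 tiles, 1 was also in the window of Zrsr1, the imprinted retrogene in an intron of Commd1.

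Meioc, required to keep germ cells in meiotic prophase, averaged 47.3 to 60.4% (median 52.4%) in liver, 47.7 to 55.1% (51.5%) in brain and 39.9 to 47.2% (42.5%) in heart over 5 tiles. Heart was below every library of the other tissues. Plagl1, an imprinted zinc finger gene, averaged 33.4 to 50.4% (median 37.9%), 34.7 to 42.4% (38.2%) and 34.9 to 45.0% (40.8%) over 4 tiles, with the 3 tissues overlapping. Mcts2, an imprinted retrogene, averaged 40.9 to 55.6%, 36.0 to 49.3% and 40.9 to 64.8% over 4 tiles, and all tissues overlapped.

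The imprinted list as a whole held 52 genes, of which 40 had 191 CpG-dense tiles. Of these tiles 129 (67.5%) were unmethylated in all 3 tissues, 22 tiles of 12 genes lay from 35 to 65% and 3 were methylated in all 3. A Mcts2 tile at 53.1% in liver, 53.05% in brain and 63.3% in heart counts in both of the last 2 groups. Snrpn, whose promoter is an imprinting centre, ran from 35.5 to 56.9% in liver, 37.8 to 51.4% in brain and 29.8 to 58.3% in heart in its only tile. Mest, Peg10 and Sgce also had tissue means from 35.8 to 44.1% in every tissue. The Gnas locus had 7 of 17 tiles at 25% or more in some tissue, at 42.5%, 37.9% and 39.7% on average, and 1 of 12 Igf2 tiles was at 97.1%, 96.8% and 97.1%.

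Some imprinted promoters did not keep 1 level across tissues. Igf2r, the receptor that clears insulin-like growth factor 2, averaged 30.6 to 44.5% (median 37.9%) in the liver libraries, 3.63 to 12.8% (5.02%) in brain and 27.9 to 39.7% (31.1%) in heart over 6 tiles. Brain lay below every liver and heart library. All 6 tiles were called lower in brain than liver, by 30.8 to 33.1 points (limma, Benjamini-Hochberg adjusted p at most 3.14e-08), and 3 lower in brain than heart, by 27.2 to 31.9 points (adjusted p at most 1.68e-06). Igf2r is known to be imprinted in most tissues but expressed from both copies in neurons.

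Liver was the high tissue at Inpp5f and Nnat. Inpp5f, an inositol phosphatase gene with an imprinted alternative start, averaged 66 to 76.0% in liver, 35.8 to 47.4% in brain and 30.3 to 47.3% in heart over 3 tiles, with liver above all libraries of the other tissues. At Nnat (neuronatin) the 4 tiles averaged 47.1 to 64.1% in liver, 27.5 to 37.4% in brain and 35 to 45.3% in heart, and 1 tile was called higher in liver than brain by 32.8 ± 2.92 points (SE, adjusted p = 5.41e-10). In all, 9 of the 191 imprinted tiles were called higher in liver than brain, 3 higher in liver than heart and 3 higher in heart than brain. The corresponding calls made up 5.04%, 7.94% and 1.76% of all tiles and 0.321%, 0.298% and 0.0559% of the CpG-dense promoter tiles, and the 9, 3 and 3 tiles came from 3, 1 and 1 genes.

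Further lists followed the ground state closely. All 86 CpG-dense tiles of 23 housekeeping genes were unmethylated in all 3 tissues, with highest tissue means of 4.58%, 2.65% and 4.85% in liver, brain and heart. Of 308 tiles of 69 ribosomal protein genes, 307 were unmethylated, and the exception was a tile of Rpl38 at 48.7 to 67.6% in liver, 43.3 to 65% in brain and 30.2 to 39.3% in heart. No tile of 33 Hox genes (123 tiles) reached 25%, and their highest tissue means were 12.7%, 11.6% and 11.4%. Of 431 tiles of 81 developmental regulators, 412 were unmethylated and 5 reached 25% in some tissue, at Hand1, Pax6, Pax8 and Tbx1.

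Pax6, a transcription factor of eye and forebrain, had 2 of 12 tiles that averaged 20.4 to 36.2% in brain against 7.15 to 10.8% in liver and 5.70 to 8.90% in heart. The brain libraries were above all others, but neither tile was called. The clustered protocadherins, from which each neuron chooses a few promoters, gave many intermediate values. Of their 34 tiles of 20 genes, 13 were unmethylated in all 3 tissues, 1 was methylated, and the medians were 16.7%, 17.5% and 18.8% in liver, brain and heart. No protocadherin tile was called between tissues.

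Genes of tissue identity were mostly unmethylated where they had CpG-dense tiles at all. The liver list had 28 such tiles in 7 of 30 genes, the brain list 74 in 21 of 33 and the heart list 14 in 5 of 29, and 26, 73 and 14 of these were unmethylated in all 3 tissues. Over all promoter tiles of these lists, CpG-poor ones included, each list was lowest in its own tissue. The liver list averaged 10.3% in liver, 30.6% in brain and 26.6% in heart, the brain list 16.0%, 11.1% and 12.6%, and the heart list 33.6%, 33.2% and 20.2%. Over the CpG-dense tiles alone, the means were 2.45%, 1.24% and 1.39% for the brain list and 2.74%, 1.57% and 1.74% for the heart list.

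Tiles in which 1 tissue differed from both others in the same direction were led by liver. Liver was higher than both in 115 tiles of 58 genes (0.238%, background 2.06%) and lower in 16 tiles of 15 genes (0.0331%, background 2.46%). Brain was higher than both in 14 tiles of 12 genes (0.0290%, background 1.45%) and lower in 22 of 15 genes (0.0455%, background 1.43%). Heart was higher than both in 2 tiles of 2 genes (0.00414%, background 0.163%) and lower in 13 of 13 genes (0.0269%, background 3.66%). The comparisons share libraries, so that these counts are not independent of those above. Their shares are held below the background by the unmethylated tiles in the same way.

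Tiles higher in liver had medians of 51.5% in liver, 2.17% in brain and 3.00% in heart, and held 9.74 CpGs on average. Of the 115 tiles, 76 adjoined another CpG-dense promoter tile, and 3 adjoined an unmethylated one. The 6 genes with the greatest separation were Rtkn, Ngef, Abcg8, Tacc2, Bcat2 and Fut11. Rtkn encodes rhotekin, a scaffold protein, and its tile centred 244.5 bp downstream of the start, with 11 CpGs, ran from 57.6 to 75.7% (median 67.4%) in liver, 1.8 to 5.2% (2.35%) in brain and 3.0 to 6.5% (5.30%) in heart. No liver library overlapped the other tissues, and the difference was 65.1 ± 2.04 points from brain and 62.9 ± 2.04 points from heart (SE, adjusted p = 2.98e-18 and 1.43e-17). A neighbouring tile with 15 CpGs was called as well, and the 4 other Rtkn tiles lay between 3.00 and 11.6% in every tissue.

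Fut11, a fucosyltransferase family gene, showed the pattern in all 4 of its CpG-dense tiles, including 1 with 22 CpGs in coding sequence. That tile ran from 38.4 to 62.5% (median 51.8%) in liver, 0.1 to 0.6% (0.35%) in brain and 0.2 to 0.7% (0.45%) in heart, with differences of 49.9 ± 2.79 and 49.8 ± 2.79 points (adjusted p = 6.06e-14 and 9.19e-14). Bcat2, the mitochondrial branched-chain aminotransferase, whose liver expression is known to be low, was likewise covered in all 3 of its tiles. Its middle tile ran from 45.6 to 63.4% in liver against 0.0 to 10.3% in brain and 0.0 to 2.7% in heart. Abcg8 encodes a sterol transporter used in liver, and its only tile was at 51.6 to 80.0% in liver, 1.0 to 10.6% in brain and 0.0 to 1.7% in heart. The high level was in the tissue known to use the gene. However, the tile was centred -151.5 bp from the Abcg8 start and annotated as coding sequence, thus of another transcript. Its bearing on Abcg8 was not tested. Ngef (ephexin, a guanine nucleotide exchange factor of neurons) was at 41.7 to 54.5% in liver over 4 tiles, and Tacc2 at 53.2 to 66% over 3, with every brain and heart library at 6.3% or less. The 4 other Ngef tiles had tissue means of 0.383 to 21.4%.

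Tiles lower in liver held 7.63 CpGs on average, near the minimum of the class, and their medians were 22% in liver, 84.6% in brain and 79.7% in heart. Hpn (hepsin, a serine protease of the hepatocyte surface) ran from 15.2 to 25.6% (median 20.8%) in liver against 80.2 to 85.6% (84.5%) in brain and 78.1 to 88.1% (82.3%) in heart. The liver libraries were below all others, by 63.8 ± 2.28 and 62.8 ± 2.28 points (SE, adjusted p = 1.73e-17 and 5.29e-17). Haao, an enzyme of tryptophan breakdown found in liver, ran from 7.8 to 27.7% against 81.8 to 88.8% and 75.8 to 81.5%. Rnf186 and Eif4ebp3 were also lowest in liver. The Mia2 tile, centred -1040.5 bp from the start, ran from 19.5 to 42.6% in liver, 90.5 to 100% in brain and 80.4 to 100% in heart, while the 9 other tiles of the gene stayed at or under 2.32% in every tissue.

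Brain stood apart in fewer tiles. Vxn (vexin, a gene of neural differentiation) had 1 CpG-dense tile at 7.2 to 27.5% (median 14.1%) in brain, 80.2 to 91.7% (87.0%) in liver and 78.0 to 87.2% (83.4%) in heart, which put brain 70.6 ± 2.61 points below liver and 67.5 ± 3.02 points below heart (adjusted p = 3.02e-17 and 1.42e-14). Lrrc4, a synaptic adhesion gene, was at 31.6 to 50.2% in brain against 93.1 to 99.5% in liver and 93.3 to 98.2% in heart. In Map7, a microtubule-associated gene, 1 tile was at 13.3 to 37.4% in brain and at least 87.0% in every liver and heart library, while its 10 other tiles were at most 3.08% in every tissue. The run of 6 tiles, annotated as coding sequence, upstream of 4933428G20Rik averaged 41.3 to 52.3% in brain, 84.3 to 86.4% in liver and 75 to 78.5% in heart. Single tiles of Ofcc1 and Aktip were lower in brain as well, with means of 42.6% and 30.8% against 86.3% and 74.0% in liver and 85.0% and 67.3% in heart. The Aktip tile was centred -823.5 bp from the start, and the 2 other tiles of that gene had tissue means of at most 1.17%.

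Brain was the high tissue at 1300017J02Rik, where its libraries ran from 56.5 to 87.5% (median 79.7%) against 8.0 to 24.1% (12.2%) in liver and 11.2 to 25% (12.9%) in heart, 63.1 ± 3.47 and 61.8 ± 4.01 points lower (adjusted p = 4.23e-14 and 7.72e-12). Cox6a2, the muscle form of a cytochrome c oxidase subunit, ran from 75.5 to 89.5% in brain, 33.3 to 52.4% in liver and 42.0 to 59.4% in heart. In Ajm1, a gene of epithelial junctions, 1 tile ran from 22.7 to 49.5% in brain and was at most 5.8% in every other library. The 2 other Ajm1 tiles had tissue means of 1.98 to 26.6%. Hic1, a transcriptional repressor gene with 11 tiles, had 1 at 30.9 to 45.5% in brain against at most 15.5% elsewhere. Over the 2 called tiles of 3 in each gene, Prom2 and Fem1al averaged 42.3% and 48.8% in brain, 11.3% and 20.7% in liver and 5.87% and 20.1% in heart. The remaining tile had tissue means of 2.98 to 21.7% in Prom2 and 27.1 to 56% in Fem1al.

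Heart was lower at Adcy6, an adenylyl cyclase of cardiac muscle, with 52.0 to 73.2% (median 63.8%) against 92.8 to 98.9% (97.6%) in liver and 87.0 to 98.5% (93.3%) in brain, and differences of 33.8 ± 2.27 and 30.1 ± 2.62 points (adjusted p = 2.86e-12 and 1.15e-09). Alpk3, a kinase gene of heart muscle, ran from 37.9 to 53.7% in heart against 70.9 to 81.6% in liver and 68.8 to 79.8% in brain. Eng (endoglin, a receptor of endothelial cells) ran from 10.4 to 21.5% in heart, 34.8 to 67% in liver and 34.2 to 73.6% in brain. Ggt5, Sh3tc2 and Mcf2l had heart means of 20.9%, 28.7% and 47.5%, against 62.4%, 79.5% and 89.4% in liver and 63.2%, 62.8% and 76.7% in brain. In each of these 6 genes no heart library overlapped the other tissues. The 2 tiles higher in heart were at Ccdc194, at 62.0 to 81.7% in heart against 24.6 to 45.5% in liver and 34.2 to 48.6% in brain, and at B3glct, a glucosyltransferase gene, at 17.8 to 47.6% against 0.0 to 12.2% and 0.5 to 9.1%. The other tiles had tissue means of 14.7 to 46.3% in Ccdc194 (2 tiles) and 0.483 to 12.4% in B3glct (3 tiles).

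**Figure D4:**
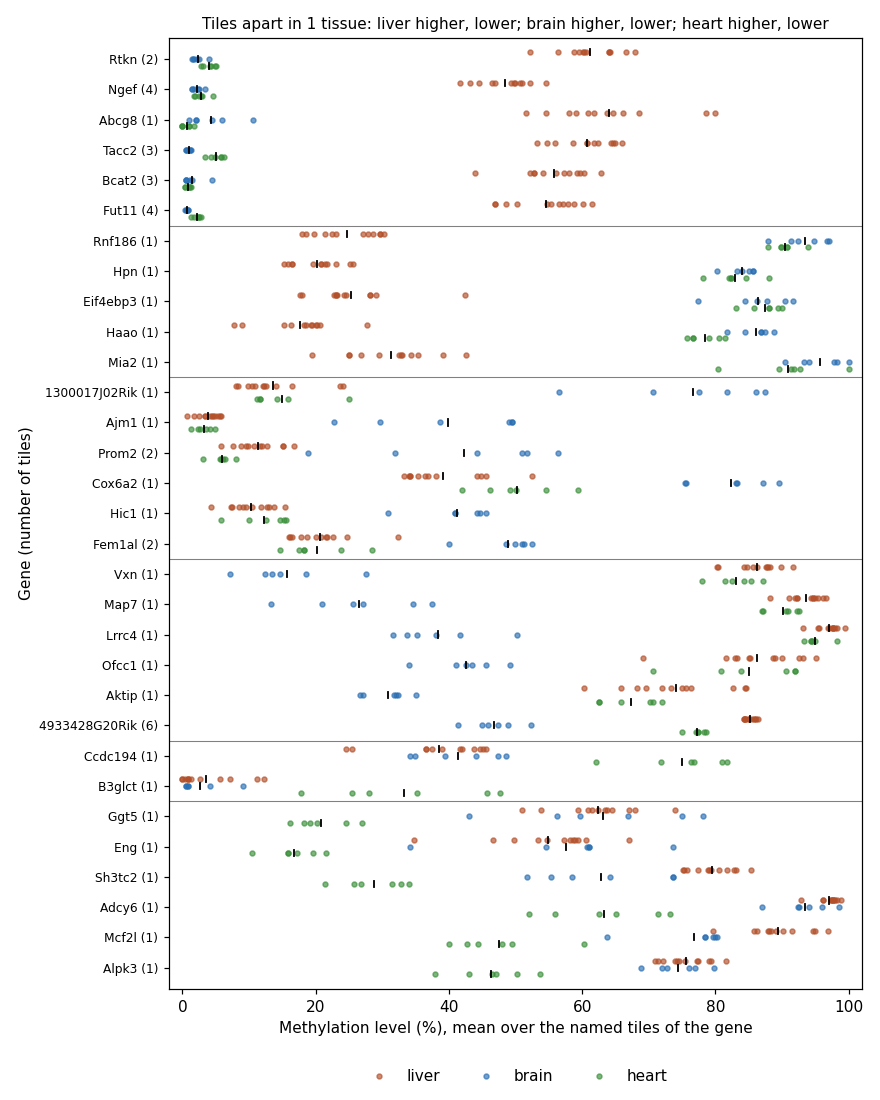
Methylation level (percent) in each liver, brain and heart library (points) with the tissue mean (black mark) for the named genes in which 1 tissue differed from both others, averaged over the gene's called tiles (number in brackets), with grey lines between liver higher, liver lower, brain higher, brain lower, heart higher and heart lower. The tissue set apart does not overlap the others in its rows, as for Hpn with 15.2 to 25.6% in liver against at least 78.1% elsewhere.

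Variation between libraries of 1 tissue was small, at levels near the floor of the scale that leave little room for spread. Over all tiles the median SD per tile was 4.45 points in liver, 4.61 in brain and 4.34 in heart. The 95th percentile of that SD was 10.8, 13.2 and 10.5 points. Over the CpG-dense promoter tiles the median SD was 0.861 points in liver, 0.451 in brain and 0.619 in heart. Among them an SD of 10 points or more was found in 78, 68 and 53 tiles (0.161%, 0.141% and 0.110%). Tmem267, which encodes a membrane protein, was the gene with most tiles at such an SD in all 3 tissues, 5 of 9, and Ddx4 and Polr3b had 1 each.

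Over the 7 Tmem267 tiles with an SD of at least 10 points in liver, the liver libraries ran from 1.09 to 49.7% (median 22.3%), the brain libraries from 0.571 to 29.7% (23.0%) and the heart libraries from 0.729 to 38.6% (23.5%). In every tissue 2 libraries were low, at 1.09 and 2.44% in liver, 0.571 and 1.56% in brain and 0.729 and 2.64% in heart. The next lowest were at 18.4%, 22.3% and 20.5%, so that no library lay between 2.64 and 18.4%. Neighbouring tiles moved together from the fourth tile on, where the 2 low liver libraries stayed at or under 7.3%. The first 3 tiles followed another order, with liver library 5 at 0.0 to 0.6% there and at 12.7 to 36.3% in the other 6. Which mouse or gender the low libraries came from cannot be told from the tables.

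**Figure D5:**
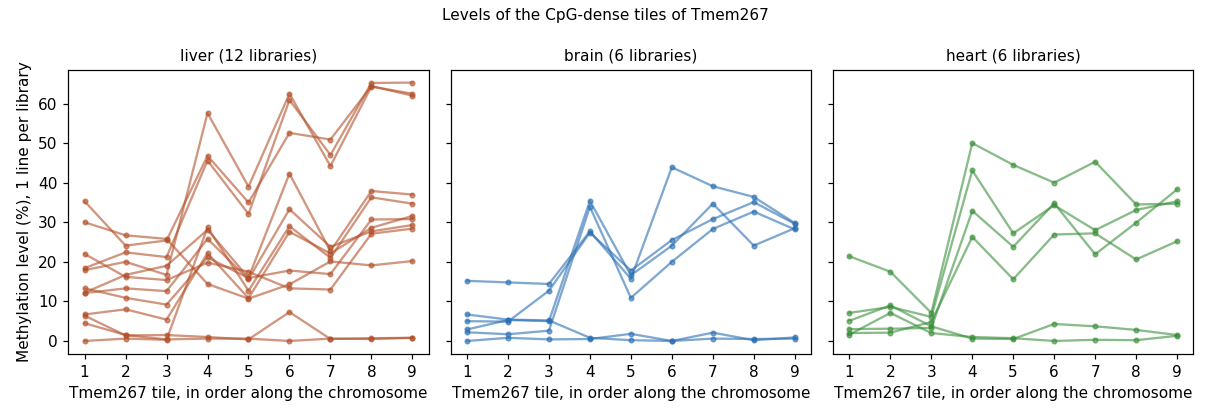
Methylation level (percent) of the 9 CpG-dense tiles of Tmem267 in order along the chromosome, with 1 line per library, for 12 liver, 6 brain and 6 heart libraries. From the fourth tile on, 2 libraries of each tissue stay at or under 7.3% while the others lie between 10.7% and 65.3%.

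The other genes with the largest SD varied most in liver. A Pprc1 tile ran from 0.0 to 100% (median 47.4%) in liver and stayed at or under 6.0% in brain and 2.0% in heart. Single tiles of Pheta2 and Fign also ran from 0.0 to 100% in liver, and 1 of Mturn from 13.3 to 93.3%. The other tiles had tissue means of at most 3.43% in Pprc1 (1 tile), 2.65% in Fign (3 tiles) and 4.45% in Mturn (6 tiles). In Pheta2 the other 3 tiles had tissue means of 4.55 to 36.1%. The read depth behind these values is unknown beyond the authors' minimum.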

How the data were processed

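Genomic DNA was bisulphite sequenced by the Methyl-MiniSeq service of Zymo Research, which also mapped the reads to mm10 with its own methods, and Bismark and methylKit (0.99.2) are named in the submitters' notes. The authors kept positions covered by more than 10 reads and below the 99.8th percentile of coverage in all libraries of a tissue and averaged them in 100 bp tiles. The deposited values are fractions of methylated reads per tile and library, with no read counts, so that the depth behind each value is unknown and neither a count test nor an interval on a level could be used. The liver, brain and heart tables held 819713, 942643 and 930358 tiles.

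Tissue came from the tables' names and their numbers of columns. All columns were used. CpGs, GC content and soft-masked bases were counted in the mm10 sequence, starts and exons came from RefSeq, and predicted transcripts and sex chromosomes were left out. Fractions were modelled in limma 3.58.1 (R 4.3.3) with 3 tissue groups and a variance trend, with 1 variance shared by the tissues, and p-values were adjusted by Benjamini-Hochberg over all 758685 tiles. As brain and heart came from mice that also gave liver, the libraries of different tissues are not independent, which the model ignores in all 3 comparisons. The model was tested on simulated data.

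Named genes were, in turn, the 12 with the most tiles at 50% or more in all 3 tissues, the 10 with the most at 35 to 65%, up to 6 per tissue and direction with the largest smaller difference, the 5 with the largest SD within a tissue, and listed genes with a tile at 25% or more, with examples from those in the ground state. Some of the named genes are not reported here, and others were chosen after their values were seen. The members, gene lists and tests were chosen with earlier results of these data known. Alternatives changed the CpG minimum, window, transcripts, repeats, tissue average, thresholds, scale, variance trend and libraries.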

Additional observations from a re-analysis of the deposited data

Results flagged for a closer look

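The 6 brain and 6 heart libraries were searched for values that lay apart. A value was picked out when its gap to the nearest other library exceeded 0.625 of the whole range (Dixon's 95% limit). This held in 21 of 250 sets of 6. The limit picks about 1 in 20 by chance only if sets are independent and normally distributed. These sets reuse the same libraries, some share tiles, and some lie near the floor of the scale, as for Pprc1 in heart. The count of 21 therefore cannot show an excess over chance. Liver, with 12 libraries, was not tested. A single heart library, number 3, had the highest mean over the CpG-dense promoter tiles (2.18%), the highest mean over the unmethylated ones (1.31%) and the lowest share under 10% (97.5%). Without it 96.9% of tiles were unmethylated in all 3 tissues and 0.610% methylated.

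In brain, a library lay apart low at Commd1 (37.5%), Hic1 (30.9%), Fem1al (40.0%), Mcf2l (63.7%), Adad1 (35.8%) and Hand1 (21.9%), and high at Bcat2 (4.50%), Gnas (41.2%), Igf2 (99%), Igf2r (12.8%) and Pcdha10 (65.9%). In heart, a library lay apart high at Impact (75.7% over 2 tiles and 64.0% over 3), 1300017J02Rik (25%), Lrrc4 (98.2%), Pprc1 (2%), Fign (5.90%) and Mturn (5.40%). The high Igf2r library in brain was still below every liver and heart library.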

How the results depend on the processing

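The share of CpG-dense promoter tiles unmethylated in all 3 tissues (96.8%) stayed between 93.7 and 98.6% under every alternative tried, including the omission of heart library 3, which was added after the data were seen. The share methylated in all 3 (0.610%) became 1.57% with a minimum of 5 CpGs, 0.153% with 10 CpGs and 0.991% with a threshold of 25%, and moved less than 1.5 times elsewhere. For calls between liver and brain (0.410% of tiles), liver and heart (0.343%) and brain and heart (0.128%), a minimum of 5 CpGs gave 0.819%, 0.707% and 0.365%, and 10 CpGs gave 0.223%, 0.193% and 0.0432%. A difference of at least 10 points gave 1.25%, 1.10% and 0.724%, and at least 50 points gave 0.105%, 0.0848% and 0.00827%. A window of 200 bp on each side gave 0.0789% for brain against heart. The logit scale, the absence of a variance trend, exact separation of the libraries, a wider window, predicted transcripts and low repeat content changed none of these shares by more than 1.5 times. On the logit scale and without the variance trend, the differences in points and their threshold stayed the same. Only the adjusted p could then change a call, so that these 2 alternatives say little about the scale or the variance model. With each library left out in turn the shares were 0.405 to 0.420%, 0.331 to 0.343% and 0.114 to 0.147%. Of the 50 named tiles that set 1 tissue apart, 47 or more stayed called on the logit scale, without the variance trend and with each library left out. The calls lost, at Fem1al, Prom2 and 4933428G20Rik, went with brain library 2, 3, 4 or 6 or heart library 1, 2, 5 or 6, and left differences of 24.1 to 25 points in size.

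No paired analysis was possible because the columns carry no mouse numbers. Without read counts, the depth per tile limits what can be said of any level measured in 1 library.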
